A study of Mus musculus with 12 samples.

Results

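The collagen chains were examined in fetal mouse kidneys kept in culture, either wildtype or carrying activated beta-catenin, which relays canonical Wnt signals to target genes. A chain was taken as any gene whose single symbol on the array reads Col, a number, the letter a and a number, and each chain was read from its probe set with the highest mean over the 12 arrays. There were 36 such chains among 12393 measured genes, with 58 probe sets between them. The RefSeq gene table (GRCm38.p6) names 44 genes of this form, and Col6a4, Col6a5, Col6a6, Col8a2, Col23a1, Col24a1, Col27a1 and Col28a1 were not analysed here. The choice of genes used the symbols alone and no measured level, while that of the probe set used its mean level. All 36 chains were tested, with no filter on low values.

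All samples were C57BL/6 kidneys dissected at 10.5 dpc (days post coitum) from mothers that had received tamoxifen intraperitoneally at 2 mg per 40 g on that day of gestation, and both genotypes are listed with this treatment. The kidneys were cultured for 3 or 4 days on porous membranes in serum-free medium with transferrin, insulin and selenium. The wildtype group (6 samples) is described as normal kidney and the activated group (6 samples) as kidney with tumors. The labels give neither the allele nor the Cre line or promoter behind the activation, and do not tie a sample to 1 kidney, 1 animal or 1 culture, so the p-values below measure the spread between these samples, which may be technical. The numbers in the sample titles form a lower run (MKI3014N to MKI3020T) and a higher run (MKI3109N to MKI3115N), each with 3 wildtype samples and 3 activated samples. What the runs stand for, and which samples had 3 or 4 days, is not given in the labels. Samples 1 to 3 of each genotype are those of the lower run and samples 4 to 6 those of the higher run, and these numbers pair no samples.

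Collagens are secreted or membrane-bound proteins in which 3 chains wind around each other, and the chains of a molecule can come from different genes. Fibril-forming collagens give connective tissue its tensile strength, collagen IV forms the network of every basement membrane, and collagen VI forms beaded filaments between the cells and the fibrils around them. In the developing kidney, stromal cells make most of the fibrillar collagen, and the tubules, vessels and glomeruli lie on basement membranes whose collagen IV chains change as they mature.

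Levels are given as log2(intensity + 16) after quantile normalisation. Since 16 was added to each intensity, differences of dim genes are understated. A value compares arrays for 1 probe set and says nothing about one chain against another. The highest value of any of 27 bacterial control probe sets, which match no mouse transcript, in any array was 5.45 on this scale. The means of 25 chains lay above that level and those of 11 lay at or under it: Col4a3, Col4a4, Col4a6, Col9a2, Col10a1, Col11a2, Col17a1, Col19a1, Col20a1, Col22a1 and Col25a1. A difference is called where limma's Benjamini-Hochberg adjusted p, over all 12393 genes, is under 0.05. Of the kidney markers, 9 of 10 were measured, and 1 of these had a mean at or under the controls; Wt1 averaged 9.41 and Six2 9.51. Activated sample 2 stood apart in RNA quality, with a log2 ratio of 5' to 3' Gapdh control signal of 0.08 against -2.63 to -1.05 in the other 11 samples.

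The results turn on the collagen VI chains and Col9a1, so the stretches just before their RefSeq starts (GRCm38.p6) are shown first. Each is printed 5' to 3' on the gene's strand. Capitals mark CTTTGAA, with A or T as its last letter, the usual core of the site bound by TCF/LEF factors, the DNA-binding partners of beta-catenin. They also mark the CCAAT box, the GC box (GGGCGG) and the TATA box (TATAAA), all on either strand. The lines hold the windows before Col6a1 (chr10:76726045-76726294, minus strand), before the upstream of the pair of Col6a2 starts (chr10:76623631-76623880, minus strand) and before both starts of Col9a1 (chr1:24177360-24177609 and chr1:24194953-24195202, plus strand).
Col6a1: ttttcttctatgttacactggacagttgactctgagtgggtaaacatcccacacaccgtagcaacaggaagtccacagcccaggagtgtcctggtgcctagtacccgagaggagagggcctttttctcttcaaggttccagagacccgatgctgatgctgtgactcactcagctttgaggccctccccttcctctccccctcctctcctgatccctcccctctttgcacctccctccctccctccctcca
Col6a2: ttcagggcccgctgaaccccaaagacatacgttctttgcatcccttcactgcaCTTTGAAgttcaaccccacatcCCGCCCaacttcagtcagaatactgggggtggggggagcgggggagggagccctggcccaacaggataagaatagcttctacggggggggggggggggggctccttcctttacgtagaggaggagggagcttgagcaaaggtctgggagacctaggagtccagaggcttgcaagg
Col9a1, first start: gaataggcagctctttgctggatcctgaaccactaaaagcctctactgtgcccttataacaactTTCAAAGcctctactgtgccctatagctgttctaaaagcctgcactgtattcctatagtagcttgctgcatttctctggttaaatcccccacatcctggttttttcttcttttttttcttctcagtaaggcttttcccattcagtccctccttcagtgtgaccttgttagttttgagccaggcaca
Col9a1, second start: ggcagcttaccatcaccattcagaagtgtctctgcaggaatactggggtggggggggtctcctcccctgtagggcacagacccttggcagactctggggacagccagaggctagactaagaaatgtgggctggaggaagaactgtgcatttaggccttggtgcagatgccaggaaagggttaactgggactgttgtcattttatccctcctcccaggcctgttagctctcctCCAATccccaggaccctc

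RefSeq windows were found for 27 of the 36 chains, 30 windows in all. CTTTGAA, or its form ending in T, stood in 5 of these 30 windows, against 7.48% of 32851 mouse windows of the same 250 bases. The 5 included the upstream Col6a2 window and the first Col9a1 window shown, but no window of Col6a1. The window before the other Col6a2 start (chr10:76623405-76623654, minus strand), not shown, lacked this motif, as did the second Col9a1 window. CCAAT stood in 12 chain windows (33.8% of all windows), GGGCGG in 16 (32.7%) and TATAAA in 5 (12.4%). No motif searched was found in the window before Col6a3 (chr1:90843972-90844221, minus strand) or in that before Col6a1. The motifs were searched independently on both strands, and none of the 4 contains another. These matches describe letters, and binding was not measured here.

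Across all 12 arrays no collagen chain passed the test for activation, and the clearest differences were in collagen VI. Col6a2 was 1.42-fold and Col6a1 1.39-fold higher in activated kidneys, each without an adjusted p under 0.05, while Col6a3, which encodes the large chain of the same filament, differed by 1.05-fold. Limma called 0 of the 36 chains, where 3 of all 12393 genes were called (0.0242%). At an unadjusted p below 0.05 there were 3 chains (Col6a2, Col6a1 and Col9a3, which was lower), or 8.33% of chains against 6.15% of genes. The difference was positive for 20 of 36 chains (55.6%, against 46.6% of genes), and its median was 0.04 for the chains and -0.01 for all genes.

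Col6a2, which pairs with Col6a1 in the triple helix of collagen VI, read 9.99, 9.95 and 10.37 in wildtype samples 1 to 3, and 10.88, 10.51 and 10.82 in activated samples 1 to 3. In the higher run it read 10.22, 10.26 and 10.45 in wildtype and 10.61, 10.57 and 10.89 in activated samples. All 6 activated values lay above all 6 wildtype values, so the genotypes did not overlap over 12 arrays, as held for 0.500% of genes in either direction. The means were 10.21 ± 0.20 (SD, n = 6) and 10.71 ± 0.17 (SD, n = 6), a log2 difference of 0.50 (SE 0.11, 95% interval 0.28 to 0.73) with a limma adjusted p of 0.247. Col6a2 then necessarily stood higher without overlap within each run as well, so this is no second result. In both runs, 0.678% of genes stood apart upward and 0.581% downward, and no other chain did either. With an effect averaged over the runs in a model of 4 groups, 1 chain was called, Col6a2, at a limma adjusted p of 0.0274, where 0.839% of genes were called; over the settings tried this p ran from 0.0274 to 0.550. With the run as an added term its adjusted p was 0.0802 and no chain was called, where 0.105% of genes were. A second Col6a2 probe set was higher by 0.36 over 12 arrays, and by 0.39 and 0.34 within the lower and the higher run.

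Col6a1 read 9.12, 8.80 and 9.31 in the wildtype samples of the lower run and 9.83, 9.74 and 9.59 in its activated samples. In the higher run the wildtype values were 9.35, 9.25 and 9.79 and the activated values 9.79, 9.75 and 9.79. The genotypes were apart in the lower run and met in the higher run, where wildtype sample 6 reached the activated level. The means were 9.27 ± 0.32 (SD, n = 6) in wildtype and 9.75 ± 0.08 (SD, n = 6) in activated kidneys. The log2 difference was 0.48 (SE 0.13, 95% interval 0.20 to 0.76), with a limma adjusted p of 0.386.

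Col6a3 carries the long N-terminal array of von Willebrand factor A domains of collagen VI. It read 9.19, 9.05 and 9.17 in wildtype and 8.96, 9.05 and 8.98 in activated samples of the lower run. In the higher run it read 9.14, 9.19 and 9.61 in wildtype and 9.57, 9.43 and 9.75 in activated samples. The genotypes overlapped in both runs, and wildtype sample 6 stood above the other 5 wildtype samples. The difference over 12 arrays was 0.07 (SE 0.15, 95% interval -0.25 to 0.38). Taken by run it was -0.14 (lower) and 0.27 (higher), beside 0.32 for Col6a1 and 0.38 for Col6a2 among the higher-run arrays. Whether the response of Col6a3 differs from that of its partners was not tested.

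Markers of other cell types also differed between genotypes without being called over 12 arrays, unless the effect was averaged over the runs. Of 9 endothelial markers, all measured and 2 with means at or under the controls, 8 had a positive difference (median 0.40), 0 were called and 2, Sox17 and Sox18, had an unadjusted p below 0.05. Their summed level was 629 to 1334 in wildtype and 1037 to 1701 in activated samples of the lower run, and 702 to 871 and 1076 to 1197 in those of the higher run, where the genotypes did not overlap. Of 9 smooth muscle and pericyte markers 8 had a positive difference (median 0.18), with 0 called and 2, Rgs5 and Cspg4, at an unadjusted p below 0.05. In the model that averaged over the runs and called Col6a2, Rgs5 was called as well (0.81, limma adjusted p = 0.0136). That model also called 4 of 10 stromal markers and 1 of 9 measured kidney markers, each lower in activated kidneys (against 0.839% of genes called). Of 10 stromal markers 7 had a negative difference (median -0.33), with 0 called and 7 at an unadjusted p below 0.05, of which Pdgfrb was higher. The part of these markers in the collagen VI values was not tested.

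**Figure D1:**
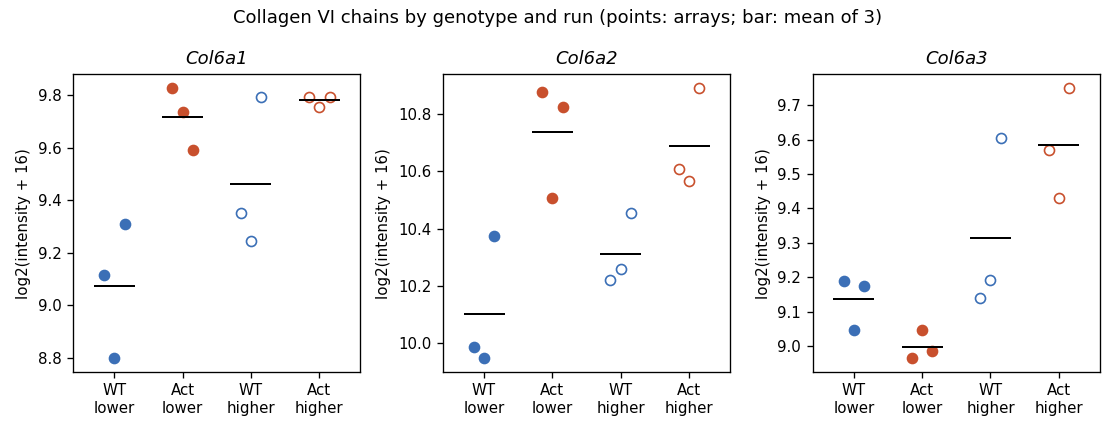
Levels of the 3 measured collagen VI chains, as log2(intensity + 16), by genotype (WT, wildtype, blue; Act, activated, orange) and run (filled points, lower run; open points, higher run), with a bar at the mean of 3 arrays. Each Col6a2 point of the activated kidneys lies above every wildtype point, Col6a1 overlaps through wildtype sample 6, and the Col6a3 genotypes overlap in both runs.

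Of the 9 fibril-forming chains measured, 0 were called for genotype over 12 arrays and 6 had a positive difference, with a median of 0.05. Col1a1, the major chain of collagen I, read 11.15, 10.79 and 10.67 in wildtype and 10.21, 10.95 and 9.75 in activated samples of the lower run. In the higher run it read 10.81, 10.91 and 11.23 in wildtype and 10.92, 11.11 and 11.05 in activated samples. Activated samples 1 and 3 were the lowest of the 12, and activated sample 2, the one with the outlying Gapdh ratio, was not low. The difference over 12 arrays was -0.26 (SE 0.21, 95% interval -0.70 to 0.18), and that within the lower run was -0.57 (95% interval -1.15 to 0.02). Col1a2, the partner chain, differed by 0.02 (SE 0.16), and Col3a1, the homotrimer of compliant tissue, by 0.05 (SE 0.11).

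Among the chains that set fibril diameter, Col5a1 read between 10.11 and 10.30 in wildtype (median 10.20) and between 10.02 and 10.78 in activated kidneys (median 10.32). Its 3 activated values of the higher run, 10.43, 10.59 and 10.78, were above every other sample. The log2 difference was 0.16 (SE 0.12) over all arrays and 0.39 (SE 0.10, limma adjusted p = 0.532) in the higher run. Col5a3 ran from 5.40 to 6.17 in wildtype (median 5.78) and from 4.90 to 6.10 in activated kidneys (median 5.43), and the groups overlapped. Col11a1, a minor fibril chain best known from cartilage, ran from 6.00 to 7.19 in wildtype (median 7.05) and from 6.74 to 7.50 in activated kidneys (median 7.41), also with overlap. Col5a2 differed by 0.14, Col2a1, the main cartilage collagen, by 0.14 and Col11a2 by -0.34, each with an interval that includes 0.

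Collagen IV chains were close between genotypes. Limma called 0 of the 6, and none had an unadjusted p below 0.05 over 12 arrays, in either run or in the difference between runs. Col4a1 and Col4a2, whose products form the collagen IV of all basement membranes, differed by 0.05 (SE 0.21) and 0.04 (SE 0.23). Col4a5, which joins the networks of mature glomeruli and of some tubules, ran from 8.88 to 9.19 in wildtype (median 8.99) and from 8.60 to 9.09 in activated kidneys (median 8.99). Its difference was -0.14 (95% interval -0.38 to 0.10). Col4a4 (wildtype 4.60 to 5.27, median 5.02; activated 4.17 to 5.49, median 4.49) and Col4a6 (wildtype 4.64 to 5.79, median 5.45; activated 4.49 to 5.71, median 5.02) overlapped between genotypes, as did Col4a3, and all 3 averaged no more than the highest bacterial control value. At that signal, changes of these late or tissue-restricted chains could not be measured.

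The fibril-associated chains sit on fibril surfaces. Of 9 measured, 4 had a positive difference and 0 were called. Col9a3, a chain of collagen IX, ran from 5.14 to 6.23 in wildtype (median 5.72) and from 4.72 to 5.65 in activated kidneys (median 5.27). Its log2 difference was -0.46 (SE 0.20, limma adjusted p = 0.791), and the groups overlapped. Col22a1 (wildtype 4.11 to 4.67, median 4.31, and activated 4.10 to 5.95, median 4.89) and Col9a2 (wildtype 4.15 to 5.36, median 5.24, and activated 4.24 to 5.44, median 4.42) averaged no more than the highest control value. Col22a1 exceeded that value in 1 array and Col9a2 in 0. Col14a1 differed by 0.21, but its second probe set gave -0.34, so this chain has no single direction. Col12a1 differed by -0.15, Col16a1 by -0.06, Col19a1 by 0.27, Col20a1 by -0.01 and Col9a1 by 0.32.

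The remaining chains differed little between genotypes. Col7a1, the anchoring fibril of skin, ran from 5.87 to 6.45 in wildtype (median 6.14) and from 5.87 to 6.57 in activated kidneys (median 6.28). Col8a1, a network chain of vessels and cornea, ran from 5.12 to 6.85 (median 6.33) and from 4.16 to 6.97 (median 6.17), in the same order. Col10a1, the chain of hypertrophic cartilage, was above the bacterial controls in 0 of 12 arrays. Of the transmembrane chains, Col13a1 ran from 6.63 to 7.21 in wildtype (median 6.95) and from 6.56 to 6.98 in activated kidneys (median 6.88), and Col17a1 and Col25a1 differed by 0.14 and -0.23 at control level. Of the multiplexins, basement membrane collagens whose ends are released as fragments such as endostatin, Col18a1 ran from 8.63 to 10.21 (median 9.66) in wildtype and from 9.52 to 9.87 (median 9.62) in activated kidneys. Col15a1 ran from 6.42 to 7.56 (median 6.72) and from 6.41 to 7.10 (median 6.75). Genotypes overlapped for every chain of this paragraph.

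Taken by run, the activation difference still called no chain. In the lower run limma called 0 of 36 (74 genes, 0.597%), although 7 chains (19.4%, against 7.07% of genes) had an unadjusted p below 0.05. Of these 7, Col11a2 was lower in activated kidneys (-0.82), with overlap and a mean at or under the controls. The values of 6 chains did not overlap, each higher in activated kidneys (16.7%, against 12.5% of genes apart in either direction and 5.41% apart upward): Col6a1, Col6a2, Col9a1, Col26a1, Col19a1 and Col22a1. Col19a1 and Col22a1 averaged no more than the highest control value, and their second probe sets gave -0.15 and -0.06 in the lower run. In that run the log2 differences were 0.64 for Col6a1 (limma adjusted p = 0.187), 0.63 for Col6a2 (0.157), 0.78 for Col26a1 (0.252) and 0.61 for Col9a1 (0.270). Six2, the marker of nephron progenitors, was lower by 2.01 there, with stromal Foxd1 lower by 0.93 and the summed level of 10 stromal markers at 9200 to 9710 in activated against 12425 to 13612 in wildtype samples. Limma called 4 of the 10 stromal markers and 1 of 9 measured kidney markers in that run, each lower in activated kidneys. The part of these markers in the collagen values was not tested. In bulk tissue, fewer cells of a type and less RNA per cell cannot be told apart.

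In the higher run limma called 0 of 36 chains (1 gene, 0.00807%), and 3 chains, Col5a1, Col6a2 and Col1a2, had an unadjusted p below 0.05 (8.33%, against 6.36% of genes). There 7 chains did not overlap (19.4%, against 11.3% of genes): Col1a2, Col3a1, Col5a1, Col6a2, Col11a1 and Col14a1 were higher in activated kidneys and Col25a1 was lower. The second Col14a1 probe set gave -0.18 in this run, and Col25a1 averaged no more than the highest control value. The difference between the runs' effects was itself tested, and limma called 0 chains (41 genes, 0.331%), with 5 at an unadjusted p below 0.05 (13.9%, against 6.11% of genes). These were Col5a1 (0.47, more positive in the higher run, limma adjusted p = 0.395), Col1a2 (0.48, adjusted p = 0.418), Col26a1 (-0.93, adjusted p = 0.455), Col19a1 (-0.97) and Col22a1 (-0.90). For Col19a1 and Col22a1, both at control level, second probe sets gave 0.56 and -0.05 for this difference. Activation was therefore not shown to act differently in the 2 runs on these 5 chains or on any other chain.

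**Figure D2:**
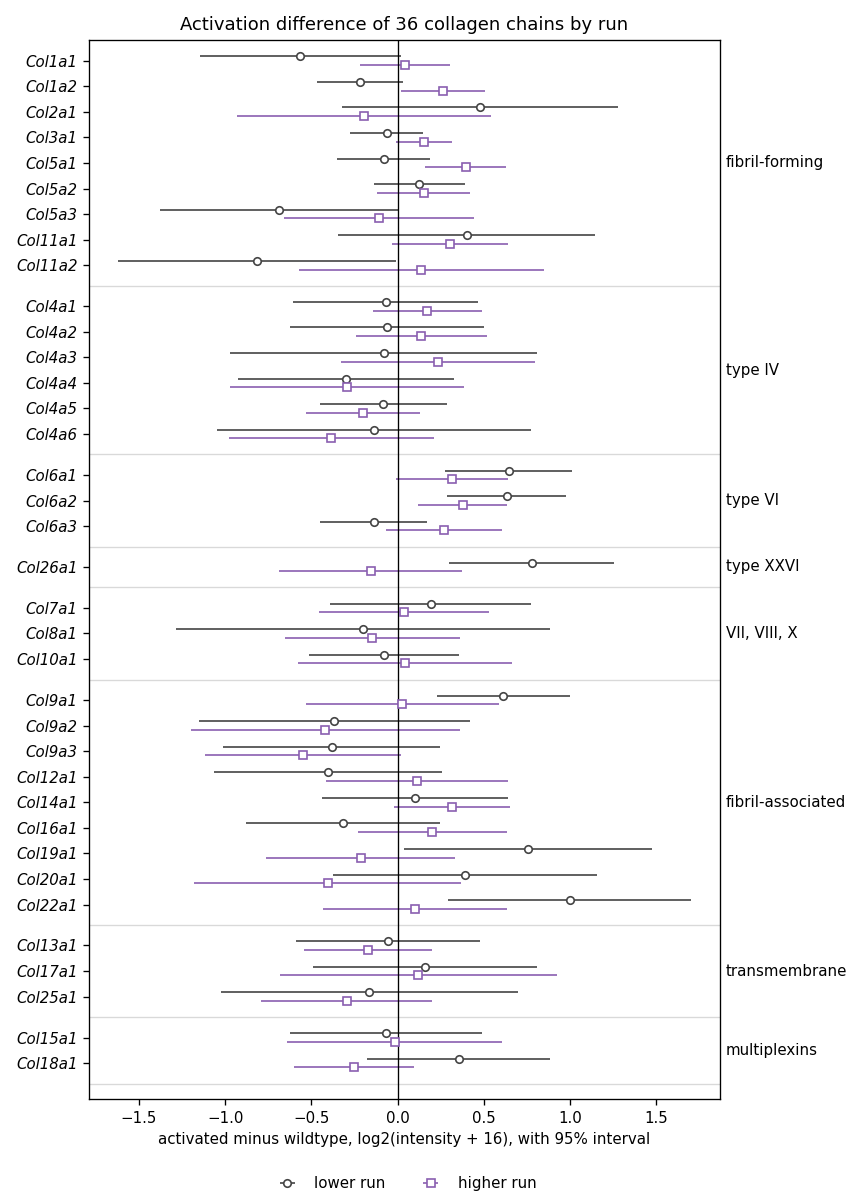
Activated minus wildtype difference of each of the 36 chains, in log2(intensity + 16) with its 95% interval, in the lower run (circles) and the higher run (squares), 3 against 3 arrays each. Col6a2 is the chain whose interval lies above 0 in both runs, and no point passed the adjusted threshold.

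More chains were called by run, in activated kidneys, than by genotype. Within the activated kidneys limma called 6 of 36 chains between the runs, 16.7% against 2.78% of all genes. From the lower to the higher run Col1a2, Col3a1, Col4a1 and Col4a2 rose (11.1% of chains, against 1.98% of genes), and Col9a1 and Col26a1 fell (5.56%, against 0.799%). At an unadjusted p below 0.05 there were 15 chains (41.7%, against 14.5% of genes). The median difference was 0.24 over the 36 chains and -0.0021 over all genes. Values did not overlap for 18 of 36 chains (against 20.1% of genes), 11 of them higher and 7 lower in the higher run. Within wildtype kidneys limma called 1 chain, Col9a1, lower in the higher run (2.78%, against 5.09% of genes). There 8 chains had an unadjusted p below 0.05 (22.2%, against 19.7%), so that the wildtype share was near the background. Subtracting the wildtype run difference from the activated one gives the same contrast as subtracting the lower-run activation difference from the higher-run one. Limma called 0 of 36 chains for that contrast, so no chain's run difference was shown to depend on genotype.

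Among the fibrillar chains, Col1a2 read 11.30, 11.29 and 11.12 in activated samples of the lower run and 11.86, 11.86 and 12.21 in those of the higher run. The sets did not overlap, and the log2 difference was 0.74 (SE 0.12, limma adjusted p = 0.0115), or 1.67-fold. In wildtype kidneys it read 11.59, 11.29 and 11.48 against 11.73, 11.60 and 11.81, a difference of 0.26 (SE 0.10, adjusted p = 0.181). A second Col1a2 probe set gave 0.96 in activated and 0.50 in wildtype kidneys. Col3a1 read 11.99, 12.20 and 12.02 against 12.50, 12.55 and 12.57 in activated kidneys, without overlap. Its difference was 0.47 (SE 0.08, adjusted p = 0.0199), and in wildtype kidneys, with values of 12.20, 12.04 and 12.15 against 12.48, 12.26 and 12.41, it was 0.25 (SE 0.08, adjusted p = 0.131). Col1a1 differed by 0.72 (SE 0.25, adjusted p = 0.220) in activated and 0.11 (SE 0.15) in wildtype kidneys. Its second probe set gave 0.25 and -0.15, so it has no single direction in wildtype kidneys. Of the 9 fibril-forming chains, 8 had a positive difference in activated kidneys, with a median of 0.49, and 2 were called.

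For collagen IV, Col4a1 read 10.49, 10.80 and 10.77 in activated samples of the lower run and 11.35, 11.30 and 11.49 in those of the higher run. Col4a2 read 9.31, 9.49 and 9.50 against 10.01, 10.01 and 10.48. Neither overlapped, and the differences were 0.69 (SE 0.11, limma adjusted p = 0.0148) and 0.73 (SE 0.16, adjusted p = 0.0430). In wildtype kidneys Col4a1 read 11.00, 10.11 and 11.16 against 11.03, 11.05 and 11.56, and Col4a2 read 9.92, 8.83 and 9.73 against 9.89, 9.86 and 10.33. Wildtype sample 2 was the lowest array for both, the groups overlapped, and the differences of 0.45 (SE 0.26) and 0.53 (SE 0.26) had limma adjusted p of 0.392 and 0.308.

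Col9a1, a chain of the collagen IX that decorates cartilage fibrils and is also made in the eye, moved the opposite way. It read 9.05, 9.08 and 9.03 in activated samples of the lower run and 7.89, 7.57 and 6.91 in those of the higher run, a fall of 3.03-fold (log2 difference -1.60, SE 0.24, limma adjusted p = 0.00958). In wildtype kidneys it read 8.45, 8.70 and 8.18 against 7.64, 7.35 and 7.30, a fall of 2.02-fold (log2 difference -1.01, SE 0.18, adjusted p = 0.0135). In both genotypes every lower-run value was above every higher-run value. A second Col9a1 probe set gave -1.83 in activated and -0.71 in wildtype kidneys. Its partners Col9a2 and Col9a3 differed by -0.17 and -0.51 in activated kidneys, neither called. Of 9 measured cartilage markers 7 had means at or under the bacterial controls, including Acan (4.82) and Matn1 (4.68), and the summed level of the list was 243 to 369 over all 12 arrays. Sox9, which the kidney also makes, averaged 7.44.

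Col26a1, a short collagen with an EMI domain, read 8.03, 8.38 and 7.89 in activated samples of the lower run and 6.97, 6.47 and 7.13 in those of the higher run. It fell 2.36-fold (log2 difference -1.24, SE 0.24, limma adjusted p = 0.0300), with no overlap. In wildtype kidneys it read 7.39, 7.46 and 7.12 against 6.70, 7.26 and 7.07, which overlapped (log2 difference -0.31, SE 0.21, adjusted p = 0.474). Its single probe set had no second reading. Over 12 arrays the genotypes differed by 0.31 (SE 0.28), with the 3 activated samples of the lower run above all others.

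Some chains stood apart between the runs in both genotypes. Values were higher in the higher run without overlap, in wildtype and in activated kidneys, for Col1a2, Col3a1, Col5a2, Col8a1 and Col13a1, 13.9% of chains against 5.64% of genes. Col9a1 and Col25a1, the latter with a mean at or under the controls, were lower in the same way (5.56%, against 2.81%). Col8a1 read 5.17, 6.14 and 5.12 against 6.83, 6.85 and 6.52 in wildtype kidneys (log2 difference 1.25, SE 0.31, limma adjusted p = 0.0548). In activated kidneys it read 5.96, 5.72 and 4.16 against 6.37, 6.97 and 6.41. Activated sample 3 lay under the control level of 5.45, as did wildtype samples 1 and 3. Col6a3 differed by 0.59 (SE 0.14, adjusted p = 0.0618) in activated kidneys, where Col6a1 and Col6a2 differed by 0.06 and -0.05.

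**Figure D3:**
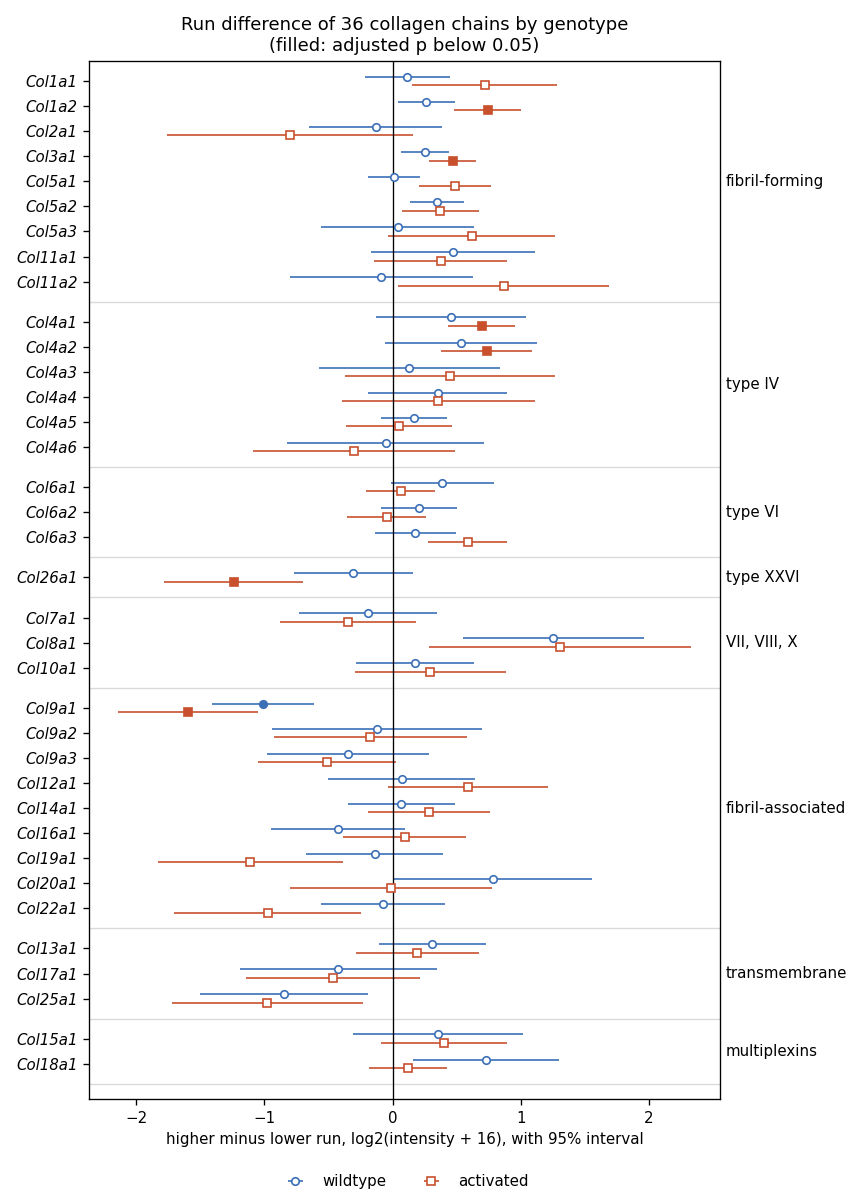
Higher minus lower run difference of each of the 36 chains, in log2(intensity + 16) with its 95% interval, in wildtype (blue circles) and activated kidneys (orange squares), 3 against 3 arrays each, with filled symbols where the limma adjusted p is under 0.05. The filled symbols are Col1a2, Col3a1, Col4a1, Col4a2, Col9a1 and Col26a1 in activated and Col9a1 in wildtype kidneys.

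**Figure D4:**
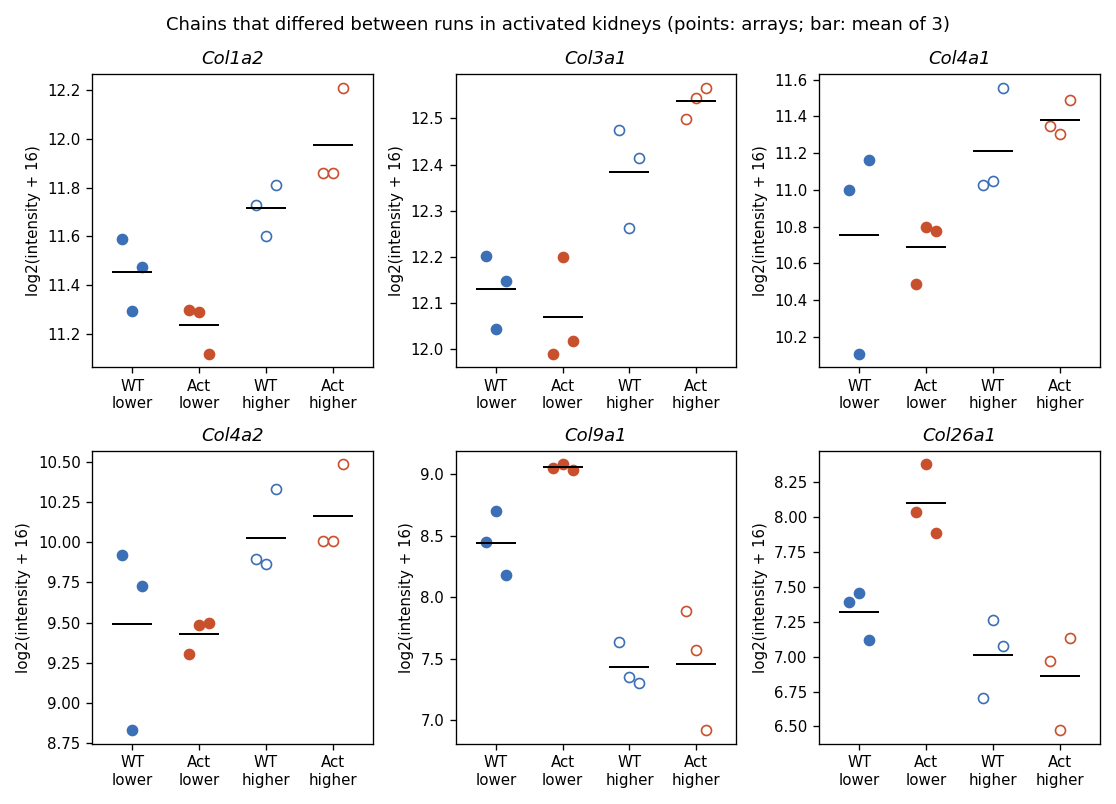
Levels of the 6 chains called between runs in activated kidneys, as log2(intensity + 16), by genotype and run (filled, lower; open, higher), with a bar at the mean of 3 arrays. In activated kidneys the open points of Col1a2, Col3a1, Col4a1 and Col4a2 lie above the filled ones, and those of Col9a1 and Col26a1 below.

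The summed level of 9 smooth muscle and pericyte markers differed by run. It was 3445 to 3987 in wildtype and 3651 to 3873 in activated samples of the lower run, and 5727 to 6377 and 7295 to 9310 in those of the higher run. Of the 9, limma called 3 in wildtype and 2 in activated kidneys, all higher in the higher run (against 5.09% and 2.78% of genes), while 6 and 7 had a positive difference and 1 had a mean at or under the controls; Acta2 rose by 0.97 and 1.40. Stromal markers summed to 10050 to 10401 in wildtype and 9850 to 11046 in activated samples of the higher run. The part of these cells, of the days in culture and of the other properties of the runs in the collagen differences was not tested. The count in activated kidneys changed whichever array was left out, which also leaves fewer samples. Limma called 0 chains without activated sample 1, 8 without sample 2 and 3 without sample 3. It called 2 without sample 4, 1 without sample 5 and 2 without sample 6. Over these 6 fits Col1a2 was called in 5, Col9a1 in 4, Col4a1 in 2, Col3a1 and Col4a2 in 1 each and Col26a1 in 0, with the adjusted p of Col26a1 between 0.00439 and 0.135 over the settings tried. It was 3 (Col4a2, Col9a1 and Col26a1, 1 higher and 2 lower) with arrays centred on their medians in place of quantile normalisation. In wildtype kidneys Col9a1 lost its call without wildtype sample 5 (adjusted p = 0.0604) or sample 6 (0.0506), and over the settings tried this p ran from 0.00881 to 0.0604.

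How chains of 1 molecule varied over the 12 arrays was examined for the 7 pairs in which both chains averaged above the controls, of 14 pairs measured. Col4a1 and Col4a2 were the closest, with Pearson's r = 0.964 (permutation p = 2.00e-05, the smallest these resamples can give; adjusted over 7 pairs 1.40e-04) and Spearman's rho = 0.909 (permutation p = 1.00e-04, adjusted 7.00e-04). Without activated sample 1 and wildtype sample 2, the farthest from the median of Col4a1, r was 0.913. Among lower-run arrays it was 0.947, and among higher-run arrays 0.876 (6 each, exact permutation p = 0.0111 and 0.0222, adjusted 0.0681 and 0.0778). Within wildtype it was 0.967 and within activated kidneys 0.961 (exact permutation p = 0.0667 and 0.0111, adjusted 0.117 and 0.0681). No subset of 6 arrays passed the adjusted threshold. The wildtype value rests on samples 2 and 6, the lowest and the highest for both chains. In wildtype samples 1, 3, 4 and 5 the order was reversed, with Col4a1 at 11.00, 11.16, 11.03 and 11.05 and Col4a2 at 9.92, 9.73, 9.89 and 9.86. The activated value includes the run difference that both chains show.

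Col6a1 and Col6a2 had r = 0.860 (permutation p = 4.40e-04, adjusted 0.00154) and rho = 0.872 (permutation p = 4.00e-04, adjusted 0.00140), and r = 0.717 without wildtype samples 1 and 2. Within wildtype kidneys r was 0.880 and within activated kidneys 0.01 (exact permutation p = 0.0111 and 0.969, adjusted 0.0778 and 0.992). The pooled value thus includes the genotype difference that both chains show, and the relation did not hold among activated samples, where Col6a1 had an SD of 0.08. Among lower-run arrays r was 0.905, and among higher-run arrays 0.806 (adjusted exact permutation p = 0.0681 and 0.126). For Col6a3 with Col6a1 and with Col6a2, r was 0.443 and 0.250 over 12 arrays, -0.528 and -0.694 in the lower run, and 0.906 and 0.904 in the higher run. Within wildtype kidneys it was 0.888 and 0.691 and within activated kidneys 0.418 and -0.02. None of these had a permutation p under 0.05 after adjustment, and whether the pairs differ in r was not tested. Col1a1 and Col1a2 had r = 0.683 (permutation p = 0.00576, adjusted 0.0134) and rho = 0.601 (permutation p = 0.0432, adjusted 0.101). Without activated samples 1 and 3, their r fell to 0.469, so that relation rests on those samples. Col5a1 with Col5a2 (r = 0.539) and Col9a1 with Col9a3 (r = 0.446) had adjusted permutation p of 0.170 and 0.172.

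**Figure D5:**
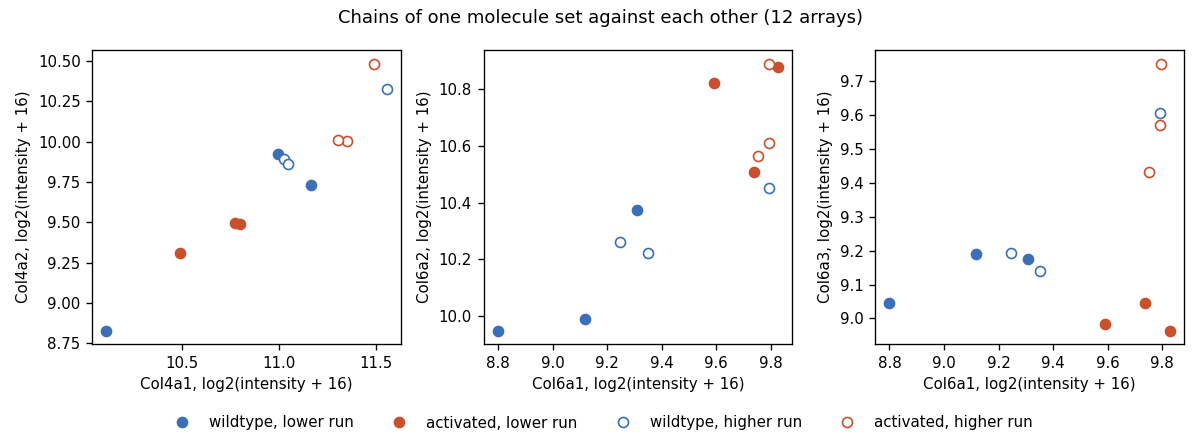
Levels of 2 chains of a molecule in the same array, both in log2(intensity + 16), for Col4a1 and Col4a2, Col6a1 and Col6a2, and Col6a1 and Col6a3 (12 arrays; blue, wildtype; orange, activated; filled, lower run; open, higher run). The first pair lies near a line (r = 0.964), the second separates by genotype (r = 0.860), and in the third the runs slope in opposite directions (r = -0.528 and 0.906).

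The genes that fold, cut and join collagens were counted beside the chains. For folding and hydroxylation, 16 of 20 listed genes were measured and limma called 0 in any of the 6 comparisons, with 1 at an unadjusted p below 0.05 over 12 arrays. That gene, P4ha1, a prolyl hydroxylase subunit, ran from 6.47 to 6.99 in wildtype and from 6.96 to 8.32 in activated kidneys (log2 difference 0.74, SE 0.21, limma adjusted p = 0.428). Its highest value, 8.32, was that of activated sample 2, the one with the outlying Gapdh ratio, and the next highest activated value was 7.62. P4ha2 differed by 0.35 and Colgalt1, a collagen galactosyltransferase, by -0.18. Of the 7 receptors measured among 11 listed, 0 were called in any comparison, and Ddr2, Lair1 and Itgb1 differed by 0.32, -0.21 and 0.20 over 12 arrays, with 0 of 7 at an unadjusted p below 0.05.

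Of 10 propeptide cleavage and cross-linking genes measured among 15 listed, limma called 4 between runs in wildtype and 4 in activated kidneys (against 5.09% and 2.78% of genes), in both cases Pcolce, Lox, Loxl1 and Tgm2, all higher in the higher run. The difference was positive for 7 and 8 of the 10, in the same order. Lox, the oxidase that starts collagen cross-links, read 7.90, 8.47 and 8.01 against 9.30, 9.17 and 9.05 in wildtype kidneys (log2 difference 1.04, SE 0.16, limma adjusted p = 0.00886). In activated kidneys it read 7.30, 7.32 and 7.54 against 9.19, 9.66 and 9.78 (2.16, SE 0.19, adjusted p = 7.08e-04). No array of the lower run reached one of the higher run. Pcolce, which speeds removal of the C-propeptide of fibrillar collagens, differed by 0.91 in wildtype and 0.83 in activated kidneys. Tgm2, a cross-linking transglutaminase, was also lower in activated than in wildtype kidneys of the lower run (-0.91, SE 0.15, adjusted p = 0.0276). This was the 1 call of this list for activation within a run. Over 12 arrays Tgm2 differed by -0.57, Pcolce2 by 0.68 and Loxl4 by -0.43, with 0 of 10 called and 1 at an unadjusted p below 0.05. With the effect averaged over the runs, 1 of the 10 was called, lower in activated kidneys (limma adjusted p = 0.00443, against 0.839% of genes called).

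Of 12 proteases and inhibitors measured among 13 listed, limma called 2 between runs in wildtype (Mmp2, 0.75, and Timp1, 1.83) and 1 in activated kidneys (Timp1, 1.41), all higher in the higher run. Of all genes, 5.09% were called between runs in wildtype and 2.78% in activated kidneys. For activation over 12 arrays 0 were called, with 0 at an unadjusted p below 0.05, and Mmp16, Mmp9 and Mmp2 differed by -0.26, 0.29 and 0.17. Of 16 basement membrane partners measured among 17 listed, 2 were called between runs in wildtype (Lama3, 1.33, and Sparc, 0.68) and 1 in activated kidneys (Sparc, 0.83), against the same 5.09% and 2.78% of genes. Lamc1, the laminin chain that most laminins share, differed by -0.28 with activation, Fn1 by 0.20 and Nid2 by 0.19, and 0 of the 16 were called over 12 arrays, with 0 at an unadjusted p below 0.05, as for the 6 collagen IV chains.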

How the data were processed

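Total RNA of 12 samples (Trizol) was labelled by an Affymetrix 3' IVT kit, per the labels' protocols. The deposited table gives the intensity, not log-transformed, of 22690 probe sets per array, from 0.0693 to 23037.5; each array's mean after trimming 2% from each end was 250.1, so the authors had scaled them per array. Software and detection calls are not given in the sources used here. Array medians spread by 0.29, so log2(intensity + 16) was quantile normalised. Of the probe sets, 20380 carried 1 gene symbol and were used; 691 with several, 1555 with none and 64 controls were left out of the tests. Tests used limma 3.58.1 (R 4.3.3) with variances following the signal. Correlations used 100000 resamples or exact permutation (scipy 1.17.1); plots used matplotlib 3.10.9. Values in every array are given for chains called in any comparison. Up to 3 of each class with the smallest p over 12 arrays are given by array or more briefly, with others added after their values were seen. Partner genes are the 3 of each list with the smallest p over 12 arrays, and those called between runs. The members and lists were chosen with earlier results of these data known. Calculations were checked on simulated data. Alternatives covered the deposited scale, median centring, dim genes, probe set choice, variance settings, array weights, pseudocount, threshold, pooled runs, an RNA quality term and leaving out each array. Array number limits precision.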

Additional observations from a re-analysis of the deposited data

Results flagged for a closer look

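Within a genotype of 6 samples, 5 of 72 groups (36 chains, wildtype and activated) held a sample whose gap to its nearest neighbour took more of the group's range than Dixon's 95% critical value allows; chance gives about 1 group in 20. Col6a3, a chain of collagen VI, read 9.61 in wildtype sample 6, with its nearest neighbour at 9.19. Col11a1 read 6.00 in wildtype sample 2 (nearest 6.99), and Col2a1 read 6.31 in wildtype sample 1 (nearest 5.97). Col11a2 read 4.66 in wildtype sample 6 (nearest 5.41) and Col10a1 read 5.00 in activated sample 4 (nearest 4.18), both under the highest bacterial control value, 5.45.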

How the results depend on the processing

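Of the chain counts, those for activation in the higher run and for the difference between the runs' effects were 0 under each alternative tried, leaving out each array included. Over 12 arrays the count rose from 0 to 1 (Col6a2) with the run and the 5'/3' ratio as terms and with an effect averaged over 4 groups (its limma adjusted p ran from 0.0274 to 0.550 over the settings). In the lower run it rose from 0 to 1 (Col6a2) with array weights and with the spread pooled over 4 groups (0.0345 to 0.581 over the settings). Both stayed at 0 when any array was left out. Over these settings the difference of Col6a2 kept its sign, from 0.43 to 0.55 over 12 arrays, and that of Col6a1 lay between 0.39 and 0.58. Between runs in wildtype the count of 1 became 2 (Col8a1 and Col9a1) with array weights and with the 5'/3' ratio as a covariate, 0 at an adjusted p below 0.01, and 0 to 2 when 1 array was left out. In activated kidneys the count of 6 became 3 with median-centred arrays, 1 (Col9a1) without a variance trend, 13 with array weights, 1 (Col9a1) at an adjusted p below 0.01, 10 with the 5'/3' ratio as a covariate, and 0 to 8 when 1 array was left out. The split between higher and lower calls, 4 to 2, was 1 to 2 with median centring and 4 to 1 on the deposited scale. All 6 called chains kept their sign throughout. The cause of these shifts was not tested, except that leaving out an array leaves fewer samples. The share of all genes called under each setting is not given here, so these counts show no shift particular to the chains. The ratio covariate for the runs and the within-genotype correlations were chosen after seeing the data. No paired analysis was possible because each title number belongs to a single sample. Chains at the level of the bacterial controls could not be judged at this signal.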
